A study of Canis lupus familiaris with 6 samples.

Results

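The 10 genes followed here belong to the rod-derived cone viability factor (RdCVF) and glucose pathway of the dog neuroretina: NXNL1, BSG, SLC2A1, HK1, HK2, PFKFB3, PKM, LDHA, LDHB and SLC16A1. They were chosen by name, with earlier results of these data known, and all 10 of the 10 were found among the 34981 gene names of the files. Fragments of retinal organoids grown from the human embryonic stem cell line WA09 carrying a CRX-tdTomato reporter had been placed under the retina of dogs. A neuroretinal punch of 5 mm lying above the graft was set against a graft-free punch, both taken 3 days after transplantation, in 3 experiments named RC724, RC726 and LG5. All 6 libraries, controls included, came from immunosuppressed dogs with normal retinas, labelled as normal or wild type. The graft-free punch is therefore a control within the operated animals, not an untreated retina, and breed, age and sex are not in the labels. Each group had n = 3 libraries, 1 for each experiment.

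The pathway links 3 cell classes. NXNL1 encodes RdCVF, a thioredoxin-like protein that rods release and that acts on cones through a splice form of basigin (BSG), which is bound to the glucose transporter GLUT1 (SLC2A1) and raises glucose entry. Photoreceptors ferment much of their glucose to lactate even with oxygen present: hexokinases (HK1, HK2) trap glucose, PFKFB3 makes the activator of phosphofructokinase, PKM makes pyruvate, and lactate dehydrogenase subunits (LDHA, LDHB) interconvert pyruvate and lactate. Lactate crosses membranes through the monocarboxylate transporter MCT1 (SLC16A1), which needs basigin as its chaperone. Counts were taken per gene, so the short and long NXNL1 products, the basigin splice forms and PKM1 and PKM2 could not be told apart.

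Rods, cones and Müller glia were taken as clusters of cell barcodes named from marker genes. The clustering used none of the 10 genes. After filtering, 37296 barcodes were rod-like, 3468 cone-like and 12204 Müller glia-like. Of the 20467 barcodes that passed a rod marker gate 1 by 1, 96.6% lay in rod clusters. The matching shares were 83.3% for 3855 cone barcodes and 83.3% for 10236 Müller glia barcodes. The libraries held 34768162 to 60755006 UMIs (counted molecules), with a median of 1195 to 2775 per retained barcode, and any pair of libraries shared 17 to 102 barcode sequences. Experiment LG5 stood apart: its barcodes formed other clusters than those of RC726 and RC724, and free RNA was estimated at 28.0% and 33.5% of its rod UMIs (over graft and control) against 3.24% to 5.16% in the other experiments. In LG5 the largest rod cluster differed between the 2 groups: cluster 2 held 4347 control and 1382 over-graft rods, whereas cluster 6, led by VMO1 and the interferon-induced genes ISG15, IRF7 and MX1, held 275 and 3392. In RC726 and RC724 the largest rod cluster was shared, with 2661 control and 2506 over-graft rods of RC726 and 2037 and 2047 of RC724 in cluster 0. Smaller clusters were unevenly filled in RC724, with 1350 and 411 rods in cluster 13 and 123 and 1539 in cluster 8, which held 199 and 1133 in RC726. Among Müller glia of LG5, cluster 11, led by TIMP1 and S100A6, held 135 control and 2051 over-graft barcodes.

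Levels are given as counts per 1000000 UMIs of the class (CPM), and changes as the log2 change over graft against control ± standard error from edgeR's quasi-likelihood test on the summed counts, with the experiment as a block and p-values adjusted by the Benjamini-Hochberg method over all genes tested. A gene is said to have risen or fallen where that adjusted p was under 0.05. Levels are compared within a gene only, since the files give no lengths for 1 gene against another. The fit also scales each sum by a factor, so its log2 differences between classes are not ratios of the CPM.

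In control retina the 10 genes divided the classes differently. NXNL1 and HK2 were highest in rods, SLC2A1, BSG and SLC16A1 were higher in Müller glia than in photoreceptors, and PKM and HK1 showed no called difference among rods, cones and Müller glia. Between Müller glia and rods 8 of the 10 genes differed, where 65.0% of all genes did. Between cones and Müller glia 5 of 10 differed (52.8% of all genes), and between cones and rods 2 of 10 (19.8% of all genes). Without LG5, RC726 or RC724 the cone-rod comparison called 6186, 285 and 264 genes of all and 7, 0 and 0 of the 10. The counts of the 10 genes lie near these shares and are read as no more than that.

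**Figure D1:**
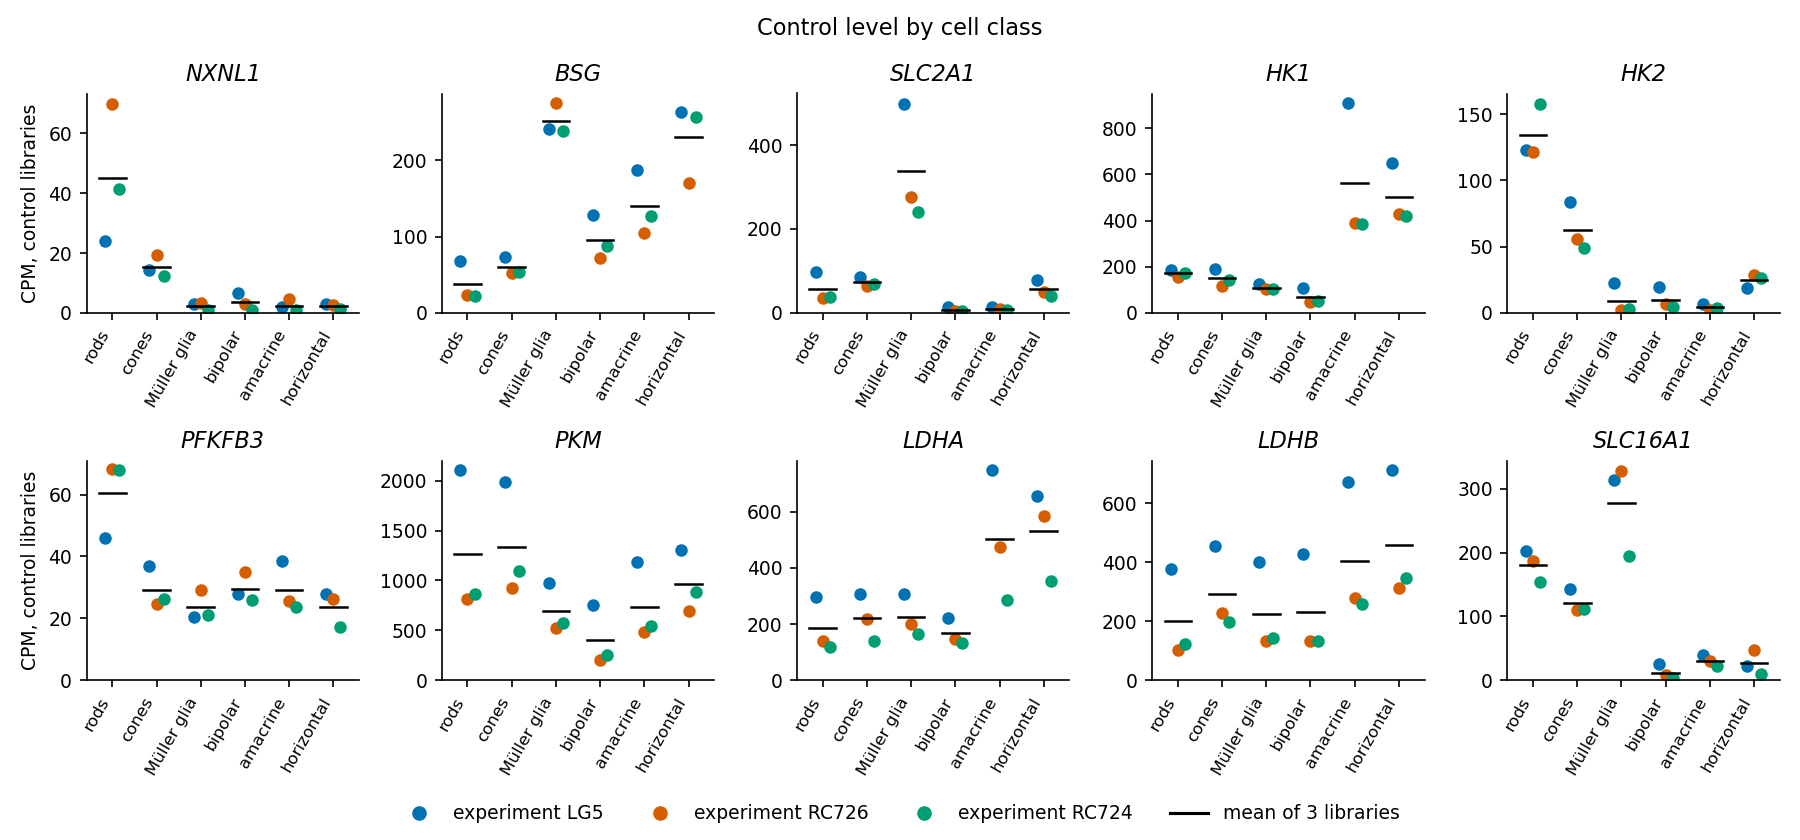
Level of each of the 10 genes in CPM (linear axes starting at 0, 1 scale per gene) in the 6 retinal classes with at least 20 barcodes in every library, in the 3 control libraries; points are libraries, coloured by experiment, and bars are means. NXNL1 and HK2 are highest in rods and SLC2A1 and SLC16A1 in Müller glia, and LG5 lies above the other experiments for PKM and LDHB in every class shown.

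NXNL1 was read at 24.1, 69.9 and 41.3 CPM in control rods of LG5, RC726 and RC724. Control cones held 14.3, 19.2 and 12.3 CPM, and Müller glia 3.02, 3.37 and 0.826 CPM. The order rods, cones, Müller glia held in each experiment: cones lay below rods (cone minus rod -1.41 ± 0.38, edgeR adjusted p = 0.0414) and Müller glia lay lower still (Müller glia minus rod -3.68 ± 0.42, adjusted p = 0.000636). The call between cones and rods was lost without RC726 (-1.32, adjusted p = 0.371) and without RC724 (-1.29, adjusted p = 0.184). It was also lost after free RNA subtraction (adjusted p = 0.0608), with a stricter barcode filter (0.061) and without the block (0.273).

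Rod RNA outside rods bears on the NXNL1 levels of cones and of Müller glia. The 12 rod markers, used as a yardstick for rod RNA in other classes, had a median level in control Müller glia of 0.159, 0.0318 and 0.0224 of their rod level in LG5, RC726 and RC724. NXNL1 stood at 0.125, 0.0482 and 0.02 of its rod level there, inside the range of the 12 markers in each control library. In control cones of RC726 and RC724 the markers had medians of 0.0604 and 0.0365 of their rod level, while NXNL1 stood at 0.275 and 0.298, above 11 of the 12 markers. RP1, which encodes a protein of the photoreceptor axoneme, was the marker above it. In LG5 cones the marker median was 0.404, and NXNL1 stood at 0.593, above all 12. The cones of LG5 thus held far more rod marker RNA than those of the other experiments. What part it had in the cone values of LG5 was not tested.

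The hexokinase gene HK2 had control levels of 123, 121 and 158 CPM in rods. It was read at 83.8, 55.7 and 49.0 CPM in cones and 22.2, 1.92 and 2.97 CPM in Müller glia. Rods lay above cones in all 3 experiments, although this difference was not called (cone minus rod -1.10, 95% interval -2.50 to 0.31, adjusted p = 0.229). The difference between Müller glia and rods was called (-3.88 ± 0.69, adjusted p = 0.00218), and so was that between cones and Müller glia (2.78 ± 0.67, adjusted p = 0.0105, lost without RC726 or RC724 at 0.0925 and 0.0956). The other hexokinase, HK1, was at 171 ± 15.4 CPM in rods, 151 ± 36.8 in cones and 110 ± 12.6 in Müller glia (mean ± SD, n = 3). Its CPM was lower in Müller glia than in rods in each experiment, with no overlap. The scaled edgeR fit gave no difference between them (Müller glia minus rod -0.03, adjusted p = 0.869). Among the 6 classes with at least 20 barcodes in every library, HK1 was highest in amacrine-like (562 ± 300.1 CPM) and horizontal-like barcodes (500.1 ± 131 CPM).

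SLC2A1 was read at 96.6, 34.8 and 36.5 CPM in control rods and 85.4, 64.5 and 69.4 CPM in control cones. In Müller glia it was 498, 276 and 242 CPM, with no overlap with either photoreceptor class. Müller glia exceeded rods by 3.27 ± 0.31 (adjusted p = 0.000481), and cones lay below Müller glia (-2.62 ± 0.30, adjusted p = 0.000692). Endothelial-like barcodes, a class of vessel cells in which GLUT1 carries glucose across the blood-retinal barrier, gave 1881, 2193 and 1880 CPM in control from only 18, 11 and 25 barcodes. BSG followed a like pattern, with 67.4, 23.5 and 22.7 CPM in rods, 72.7, 52.9 and 54.2 CPM in cones and 241, 275 and 239 CPM in Müller glia. Its excess in Müller glia over rods was 3.50 ± 0.41 (adjusted p = 0.000658). In LG5 control rods free RNA was estimated at 77.0 CPM of SLC2A1 and 53.4 CPM of BSG, most of the levels read there. Bipolar-like barcodes held SLC2A1 at 7.35 ± 6.57 CPM, below all photoreceptor libraries, while their BSG (96.1 ± 28.5 CPM) was not below them.

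SLC16A1 was also highest in Müller glia among the 3 classes, at 313, 327 and 194 CPM, against 202, 187 and 154 CPM in rods and 143, 111 and 111 CPM in cones. Müller glia exceeded rods by 1.21 ± 0.20 (adjusted p = 0.0015, and 0.0597 without RC726), and cones lay below Müller glia (-1.67 ± 0.20, adjusted p = 0.000773). The inner neurons had little of it: bipolar-like, amacrine-like and horizontal-like barcodes averaged 12.2, 30.6 and 26.4 CPM. PFKFB3 went the other way, with 45.8, 68.3 and 67.8 CPM in rods against 36.8, 24.6 and 26.3 CPM in cones and 20.5, 29.2 and 21.2 CPM in Müller glia. Its rod level exceeded both others (cone minus rod -0.94 ± 0.23, adjusted p = 0.0289; Müller glia minus rod -0.75 ± 0.22, adjusted p = 0.0202). Both PFKFB3 calls were lost without RC726 and without RC724, at adjusted p = 0.0714 to 0.335.

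At the end of the pathway the classes differed less. PKM averaged 1260 ± 729 CPM in control rods, 1336 ± 573 in cones and 690 ± 247 in Müller glia, and no pair of classes was called. In each class LG5 held more PKM than the other experiments, with 2102 CPM in its rods against 815 and 864. LDHA (Müller glia minus rod 0.94 ± 0.23, adjusted p = 0.00836) and LDHB (0.82 ± 0.25, adjusted p = 0.0216) were called higher in Müller glia than in rods, although their CPM overlapped. Both calls were lost without RC726 and without RC724, at adjusted p = 0.102 to 0.187. Mean CPM in rods and Müller glia was 185 and 225 for LDHA, and 201 and 226 for LDHB. Both fitted differences were larger than these means differ, as the fit also scales the sums of each class. That scaling placed the median gene at 0.12 for Müller glia against rods with edgeR's default factors and at 0.004 with relative log expression (RLE) factors.

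Over the graft, rods lost NXNL1 and gained HK2 and LDHA, while the remaining 7 genes did not change by the test. These 3 calls among 10 compare with 21.8% of all 15333 genes tested in rods, of which 11.4% rose and 10.4% fell. A count of 3 in 10 is near that share, and without RC724 the genes called in rods numbered 1226 of all and the same 3 of the 10. With the experiment left out of the fit, no gene of any kind was called in rods, cones or Müller glia (589, 210 and 138 genes had an unadjusted p under 0.05). The fit without the block kept the directions of the pathway genes called in rods and cones.

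**Figure D2:**
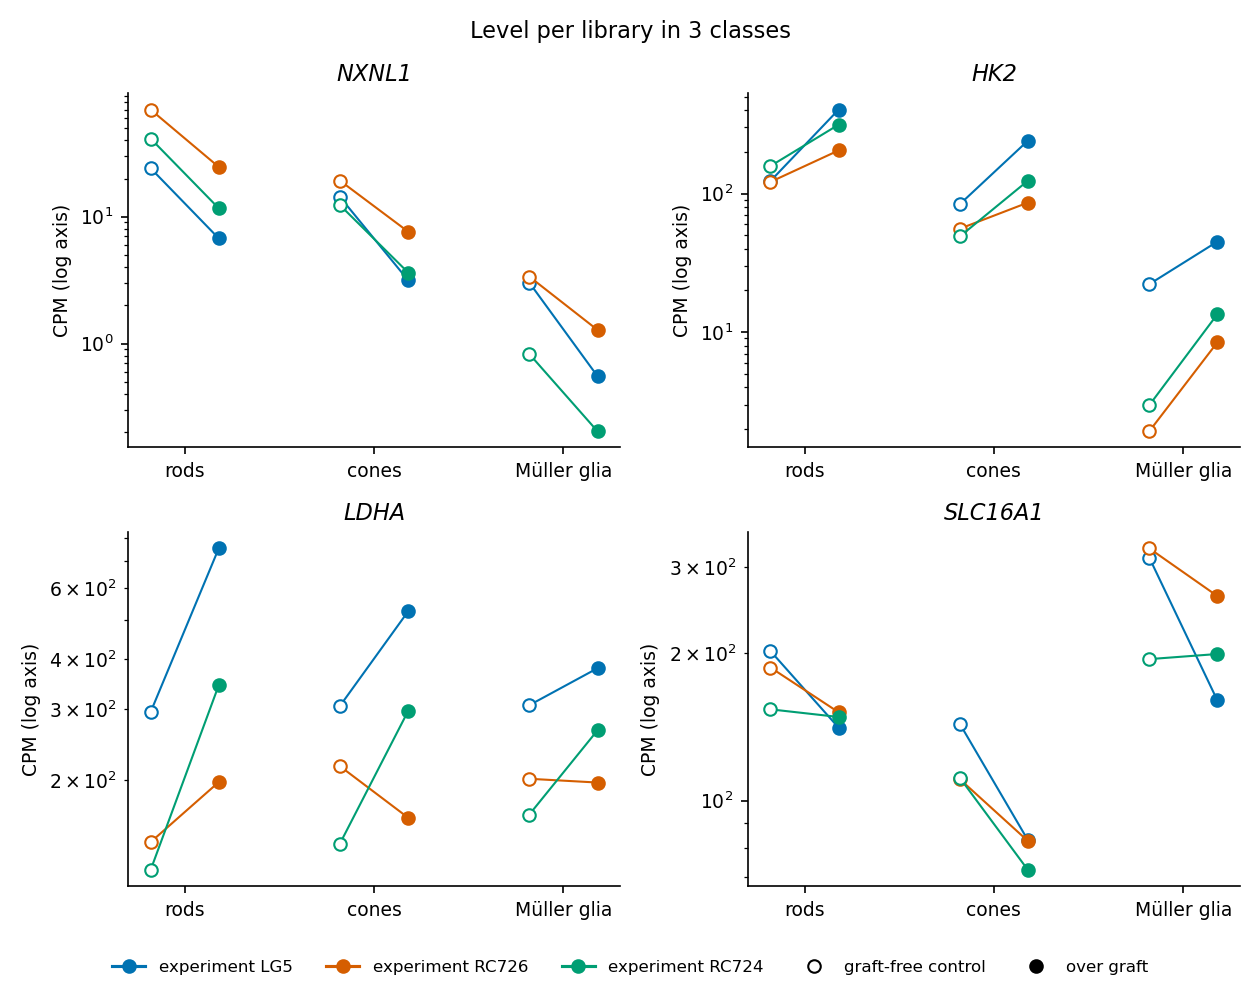
Level of NXNL1, HK2, LDHA and SLC16A1 in CPM (log axes) in rods, cones and Müller glia; open circles are graft-free control libraries, filled circles over-graft libraries, and lines join the 2 libraries of an experiment. NXNL1 falls and HK2 rises along all 9 lines of its panel, LDHA rises in the rods of all 3 experiments, and SLC16A1 falls along all 3 cone lines.

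NXNL1 in rods went from 24.1 to 6.74 CPM in LG5, from 69.9 to 24.7 CPM in RC726 and from 41.3 to 11.6 CPM in RC724. Each over-graft library lay below its own control, but RC726 over graft was no lower than LG5 control, so the groups overlapped across experiments. The fitted change was -1.70 ± 0.13 (edgeR adjusted p = 1.28e-05), a 3.26-fold lower level, resting on 46 to 435 NXNL1 UMIs per over-graft library and 188 to 1031 per control library. Across the alternatives the change lay between -1.85 and -1.65, and only the fit without the block lost the call (adjusted p = 1).

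NXNL1 was lower over the graft within rod clusters as well. Pairs of 1 rod cluster within 1 experiment were compared where they held at least 10 NXNL1 UMIs over both groups together. In 14 of 14 such pairs the over-graft level was below control, at 0.146 to 0.656 of it. The pairs share the same 6 libraries, so they are not replicates and their count is a description. In LG5, the interferon-led cluster 6 went from 36.6 to 5.33 CPM and cluster 2 from 27.9 to 17.4 CPM. In RC724 cluster 13 went from 51.4 to 14.5 CPM, and in RC726 cluster 3 went from 78.1 to 34.5 CPM. Rod identity genes moved beside it: 7 of the 12 rod markers fell and none rose, with a median change of -0.75 and a range of -1.26 (SLC24A1) to 0.05 (NRL), and the markers' summed share of rod UMIs went from 2.94% to 1.79% in LG5, from 1.92% to 1.53% in RC726 and from 1.82% to 1.08% in RC724. NXNL1 thus fell further than any of the 12, as a description; a difference between NXNL1 and these markers was not tested. Müller glia markers made up 0.0177% to 0.213% of rod UMIs, with no common direction.

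HK2 in rods went from 123 to 403 CPM in LG5, from 121 to 205 CPM in RC726 and from 158 to 314 CPM in RC724. All over-graft libraries lay above all controls. The change was 1.13 ± 0.15 (adjusted p = 0.000392), a 2.19-fold higher level, and 0.87 to 1.32 over the alternatives. Within rod clusters HK2 was higher over graft in 15 of 16 pairs, which share the same 6 libraries and are no replicates. The exception was cluster 8 of RC726, at 281 CPM in control and 265 CPM over graft. HK1 did not change (0.22, 95% interval -0.15 to 0.58, adjusted p = 0.397): it went from 184 to 348 CPM in LG5, against 154 to 156 CPM in RC726 and 175 to 150 CPM in RC724, and without LG5 the estimate was -0.11.

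LDHA, the subunit that favours lactate production, went from 295 to 752 CPM in LG5 rods, from 141 to 198 CPM in RC726 and from 120 to 345 CPM in RC724. Each experiment moved up, with RC726 the least, and the groups overlapped across experiments. The change was 1.10 ± 0.17 (adjusted p = 0.000986), or 2.15-fold. LDHB, the subunit that favours lactate use, was lower in each experiment, from 378 to 324, from 104 to 92.6 and from 122 to 95.5 CPM, but this did not pass (-0.26, 95% interval -0.49 to -0.04, adjusted p = 0.0867). PKM, the enzyme before them, was at 1260 ± 729 CPM in control and 1269 ± 850 over graft (-0.06, interval -0.34 to 0.22, adjusted p = 0.789).

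The remaining rod values were small. BSG was higher in each experiment, from 67.4 to 92.6, from 23.5 to 24.0 and from 22.7 to 28.4 CPM, without a call (0.25, interval -0.003 to 0.51, adjusted p = 0.148). SLC2A1 was 56.0 ± 35.2 CPM in control and 52.0 ± 28.5 CPM over graft (-0.09, interval -0.34 to 0.16, adjusted p = 0.614). In LG5 rods free RNA was estimated at 53.4 CPM of BSG in control and 69.2 CPM over graft. The matching estimates for SLC2A1 were 77.0 and 43.2 CPM. After subtraction of free RNA the SLC2A1 estimate in rods was 0.24 (adjusted p = 0.446). SLC16A1 was below control in each experiment (202 to 141, 187 to 151 and 154 to 148 CPM), and its groups did not overlap, yet it did not pass (-0.31 ± 0.12, adjusted p = 0.0925). PFKFB3 differed between experiments: it went from 45.8 to 73.3 CPM in LG5 but from 68.3 to 47.7 and from 67.8 to 44.0 CPM in RC726 and RC724. It was not called over all 3 experiments (-0.20, adjusted p = 0.51) and was called lower without LG5 (-0.57, adjusted p = 0.00387).

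**Figure D3:**
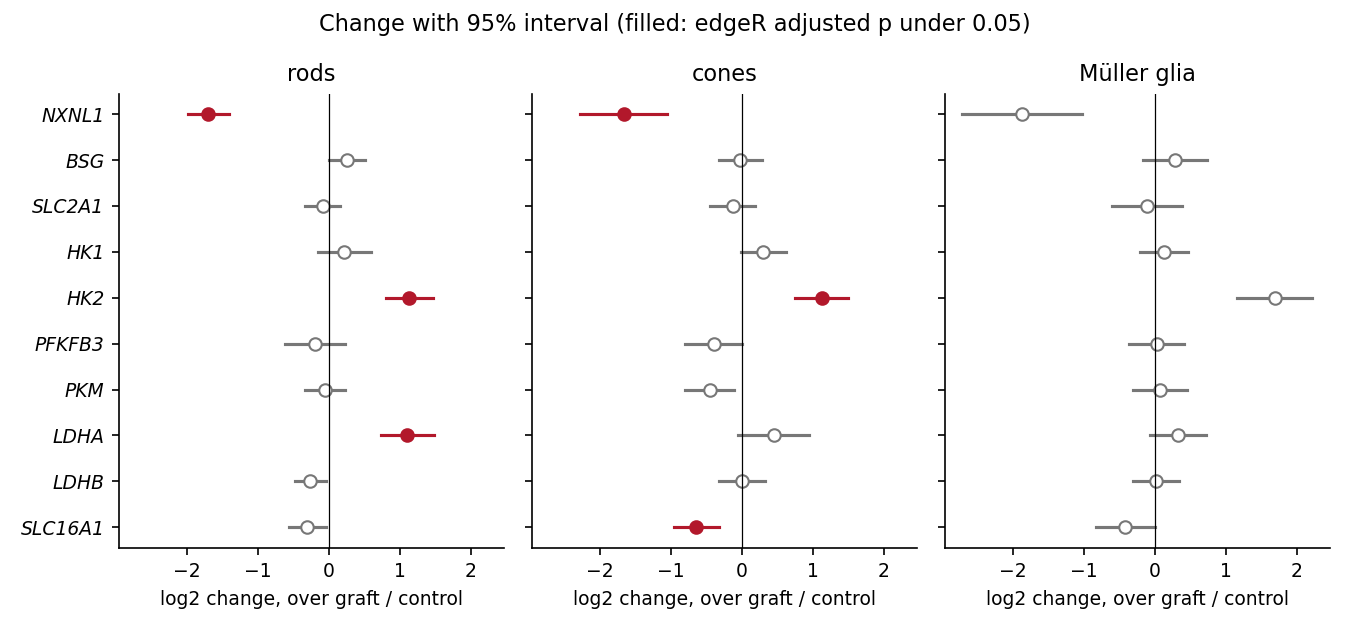
Log2 change over graft against control (horizontal axis) with its 95% interval for the 10 genes in rods, cones and Müller glia, from edgeR with the experiment as a block; filled red points passed adjusted p under 0.05. NXNL1 and HK2 stand at -1.70 and 1.13 in rods and at -1.67 and 1.13 in cones, and no gene passed in Müller glia.

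Cones over the graft also had less NXNL1 and more HK2, and in addition less SLC16A1. These are 3 of 10 genes, where 3.45% of 11628 genes tested in cones were called (2.32% rose, 1.13% fell). Since the 10 were chosen with earlier results of these data known, this count is no test of the pathway. Without LG5, RC726 or RC724 the genes called in cones numbered 218, 720 and 192. NXNL1 went from 14.3 to 3.15, from 19.2 to 7.62 and from 12.3 to 3.63 CPM in LG5, RC726 and RC724, on 6, 27 and 10 over-graft UMIs. All over-graft cones lay below all controls (-1.67 ± 0.28, adjusted p = 0.00651). The LG5 cones held rod marker RNA at medians of 0.404 and 0.381 of the rod level in control and over graft, and its part in the fall was not tested. In RC726 and RC724 those medians were 0.0365 to 0.0734, and NXNL1 without LG5 kept its call, as it did in each fit that left out 1 experiment.

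HK2 in cones went from 83.8 to 241, from 55.7 to 86.1 and from 49.0 to 124 CPM, with no overlap of the groups. The change of 1.13 ± 0.17 (adjusted p = 0.00354) was of the size seen in rods. The test of the difference between cones and rods gave -0.03 (95% interval -0.30 to 0.25, adjusted p = 0.957) for HK2 and 0.02 (interval -0.59 to 0.64, adjusted p = 0.986) for NXNL1. The interval for NXNL1 was wide.

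SLC16A1 in cones went from 143 to 83.0, from 111 to 82.7 and from 111 to 72.1 CPM, and the groups did not overlap. The fall of -0.64 ± 0.14 was just past the threshold (adjusted p = 0.0299). It was lost with DESeq2 (adjusted p = 0.0591), without LG5 (0.0938), without RC724 (0.16) and with barcodes gated 1 by 1 (0.123), with estimates between -0.65 and -0.54 in those fits. Rods and cones did not differ by test in this change (cone minus rod -0.34, interval -0.61 to -0.08, adjusted p = 0.137).

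LDHA separated the photoreceptor classes. In cones it went from 306 to 525 CPM in LG5 and from 140 to 297 CPM in RC724, but from 217 to 162 CPM in RC726, and the change of 0.45 was not called (interval -0.06 to 0.95, adjusted p = 0.4). Without RC726 it was called (0.88, adjusted p = 0.00523). The rise in rods exceeded that in cones by the test of the difference (cone minus rod -0.67 ± 0.12, adjusted p = 0.000484), the only 1 of the 10 genes called there, where 4.73% of 14617 genes were. Without RC726 this call too was lost (-0.47, adjusted p = 0.228). PKM in cones was lower in each experiment (1990 to 1684, 920 to 669 and 1099 to 754 CPM), without passing the test (-0.45, interval -0.80 to -0.10, adjusted p = 0.174). The other 5 genes of the 10 were not called in cones, with changes between -0.40 (PFKFB3) and 0.30 (HK1). Cone marker genes moved as well: 1 of 12, the cone arrestin ARR3, fell (-1.49), none rose, and the median was -0.34.

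None of the 10 genes was called in Müller glia, where 22 of 16263 genes (0.135%) were, and 179, 2 and 74 without LG5, RC726 or RC724. With no adjustment edgeR gave 1951 genes a p under 0.05, and 2 of the 10, HK2 and NXNL1, were among them. DESeq2 called 1 of the 10. HK2 went from 22.2 to 45.0, from 1.92 to 8.44 and from 2.97 to 13.5 CPM (1.69 ± 0.23, adjusted p = 0.055). It was called with DESeq2 (1.72, adjusted p = 4.63e-06), without a filter on low counts (1.71), without LG5 (2.11) and with doublets kept (1.57).

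These Müller glia counts lay near the level of rod RNA. Relative to rods of the same library, HK2 stood at 0.18, 0.0159 and 0.0188 in control and at 0.112, 0.0413 and 0.0429 over graft. The 12 rod markers had ranges of 0.124 to 0.18, 0.0243 to 0.0507 and 0.0167 to 0.0383 in control, and of 0.1 to 0.123, 0.0381 to 0.0686 and 0.0376 to 0.0599 over graft. HK2 in Müller glia was thus inside the markers' range in 5 of 6 libraries and below it in RC726 control. In RC726 and RC724 the markers' median rose from 0.0318 to 0.047 and from 0.0224 to 0.0483 of the rod level, at the same time as HK2 rose in rods. Free RNA was estimated at 21.9, 5.00 and 4.57 CPM of HK2 in control Müller glia of LG5, RC726 and RC724. Over graft the estimates were 47.4, 11.7 and 15.7 CPM. Each exceeded the HK2 level read in its library, except in LG5 control, where 22.2 CPM was read. After subtraction of free RNA, HK2 and NXNL1 had too few counts left to be tested in Müller glia. NXNL1 in Müller glia (3.02 to 0.552, 3.37 to 1.28 and 0.826 to 0.203 CPM; -1.87 ± 0.37, adjusted p = 0.107) was inside the markers' range in 4 of 6 libraries and below it over graft in LG5 and RC724. With no filter on low counts the fall of NXNL1 in Müller glia was called (-1.85, adjusted p = 0.00853). The part of rod RNA in these Müller glia values was not tested.

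**Figure D4:**
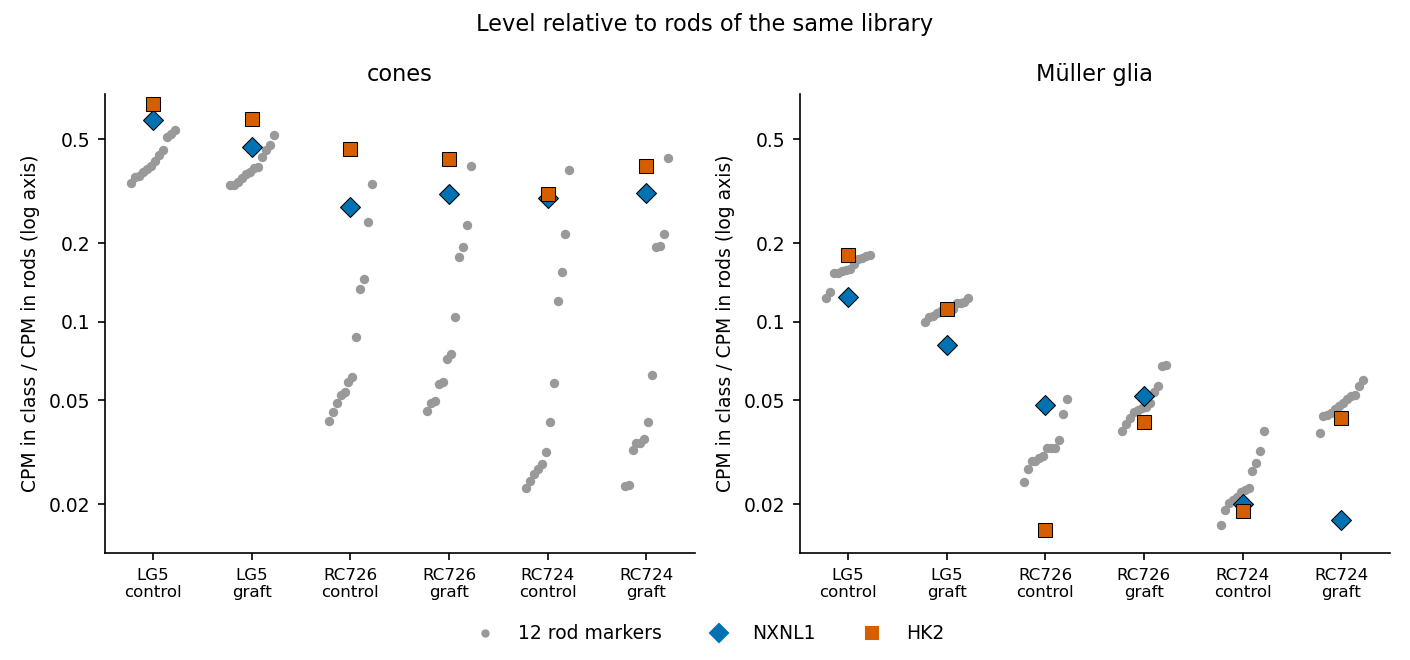
Level in cones (left) and Müller glia (right) divided by the level in rods of the same library (log axes), for NXNL1, HK2 and the 12 rod markers, in each of the 6 libraries. In Müller glia both genes lie within or below the spread of the rod markers, whereas in cones of RC726 and RC724 they lie above at least 11 of 12 markers in the same libraries, RP1 being the exception.

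The genes that Müller glia hold at high level did not change by the test. SLC2A1 was at 338 ± 139 CPM in control and 299 ± 41.8 CPM over graft (-0.11, interval -0.61 to 0.39, adjusted p = 0.877), going from 498 to 289 CPM in LG5 and from 242 to 344 CPM in RC724. BSG was at 252 ± 20.3 and 310 ± 61.3 CPM (0.29, interval -0.16 to 0.74, adjusted p = 0.588). SLC16A1 was lower in LG5 (313 to 160 CPM) and RC726 (327 to 261 CPM) but not in RC724 (194 to 199 CPM; -0.41, interval -0.83 to 0.01, adjusted p = 0.42). LDHA gave 0.33 (adjusted p = 0.489), which was below its rise in rods by the test of the difference (Müller glia minus rod -0.79 ± 0.18, adjusted p = 0.00207). LDHA was the only 1 of the 10 genes called there, where 8.21% of 18126 genes were called. That difference kept its direction but not its call after subtraction of free RNA (-0.95, adjusted p = 0.151). For HK2 the difference was 0.41 (adjusted p = 0.341), and without LG5 it was 1.21 (adjusted p = 9.45e-05). After subtraction of free RNA the HK2 difference was -4.43 (adjusted p = 0.285). The HK2 counts of Müller glia lay near the level of rod RNA, as given above, and its part in these differences was not tested.

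The wider pathway was followed in 10 gene lists, also chosen by name with earlier results of these data known. It showed rises in 7 glycolytic enzymes in rods. Of 21 enzymes tested, HK2, LDHA, PFKP, TPI1, GPI, PGAM1 and ENO1 rose (33.3%) and ALDOA fell, with a list median of 0.21 against 0.004 over all genes. Of all genes tested in rods, 11.4% rose and 10.4% fell, and these shares are given as a description. PFKP, the platelet-type phosphofructokinase, went from 81.9 ± 34.1 to 149 ± 80.1 CPM (0.78 ± 0.14, adjusted p = 0.00222). The triose phosphate isomerase gene TPI1 rose by 0.68 ± 0.12 (adjusted p = 0.00234), and the enolase gene ENO1 by 0.52 ± 0.15 (adjusted p = 0.0271). ALDOA, an aldolase, fell by 0.41 ± 0.11 (adjusted p = 0.0228). Without RC724 the enzymes called were HK2, LDHA and PFKP, all up, with 1226 genes called in all; without LG5 they were 6 up and 1 down.

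Genes that steer pyruvate and carbon elsewhere moved singly. PDK1, a kinase that inhibits pyruvate dehydrogenase, rose in rods from 10.3 ± 1.07 to 24.2 ± 10.8 CPM (1.11 ± 0.18, adjusted p = 0.00155), the only gene of 11 in its list. It rose by as much in cones, from 12.1 ± 1.89 to 27.2 ± 7.90 CPM (1.09 ± 0.20, adjusted p = 0.00869, and 0.0526 without LG5). In the tricarboxylic acid cycle IDH3G, a subunit of isocitrate dehydrogenase, rose in rods (0.36) and MDH2, mitochondrial malate dehydrogenase, fell (-0.66). TKT, transketolase of the pentose phosphate pathway, rose (0.86 ± 0.15, adjusted p = 0.00204), as the only 1 of 7. GBE1, the glycogen branching enzyme, rose (0.56) as the only 1 of 8. In the hypoxia response list BNIP3 (0.85), EGLN2 (0.76) and P4HA1 (0.49) rose and NDRG1 (-0.68) and ADM (-0.43) fell in rods, of 14 tested. Against the 21.8% of all genes called in rods, the lists of PDK1, TKT and GBE1 held a smaller share. In the hypoxia response list 21.4% rose and 14.3% fell, and in the tricarboxylic acid cycle list 6.25% and 12.5%. Of all genes 11.4% rose and 10.4% fell, and these shares are given as a description. Without RC724 the rod calls of IDH3G, GBE1, BNIP3, P4HA1, NDRG1 and ADM were lost.

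Partners of the 10 genes changed in rods as follows. TXN, thioredoxin, rose from 64.5 ± 48.9 to 106 ± 90.8 CPM (0.62 ± 0.11, adjusted p = 0.0019), while NXNL2, the second RdCVF gene, was at 2.46 CPM in control and 1.32 CPM over graft and was not called (-0.86, adjusted p = 0.0995). EMB, which encodes embigin, the basigin relative that can also escort monocarboxylate transporters, fell from 759 to 525, from 705 to 484 and from 583 to 346 CPM, with no overlap (-0.63 ± 0.11, adjusted p = 0.00265, and 0.0652 without RC724). Among glucose carriers only SLC2A13, the proton-linked inositol carrier of that family, rose (0.64, adjusted p = 0.0196; 5 tested). No gene of the phosphofructokinase-2 and TIGAR list was called in rods. In cones, TIGAR (from 63.4 to 34.4 CPM, -0.86 ± 0.19, adjusted p = 0.03) and ALDOC (from 847 to 512 CPM, -0.75 ± 0.17, adjusted p = 0.0276) fell, and the calls of both were lost without LG5 or without RC724. No gene of the 10 lists was called in Müller glia by edgeR, where 13 of 98 had an unadjusted p under 0.05, and DESeq2 called HK2 and the glucose transporter SLC2A12.

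**Figure D5:**
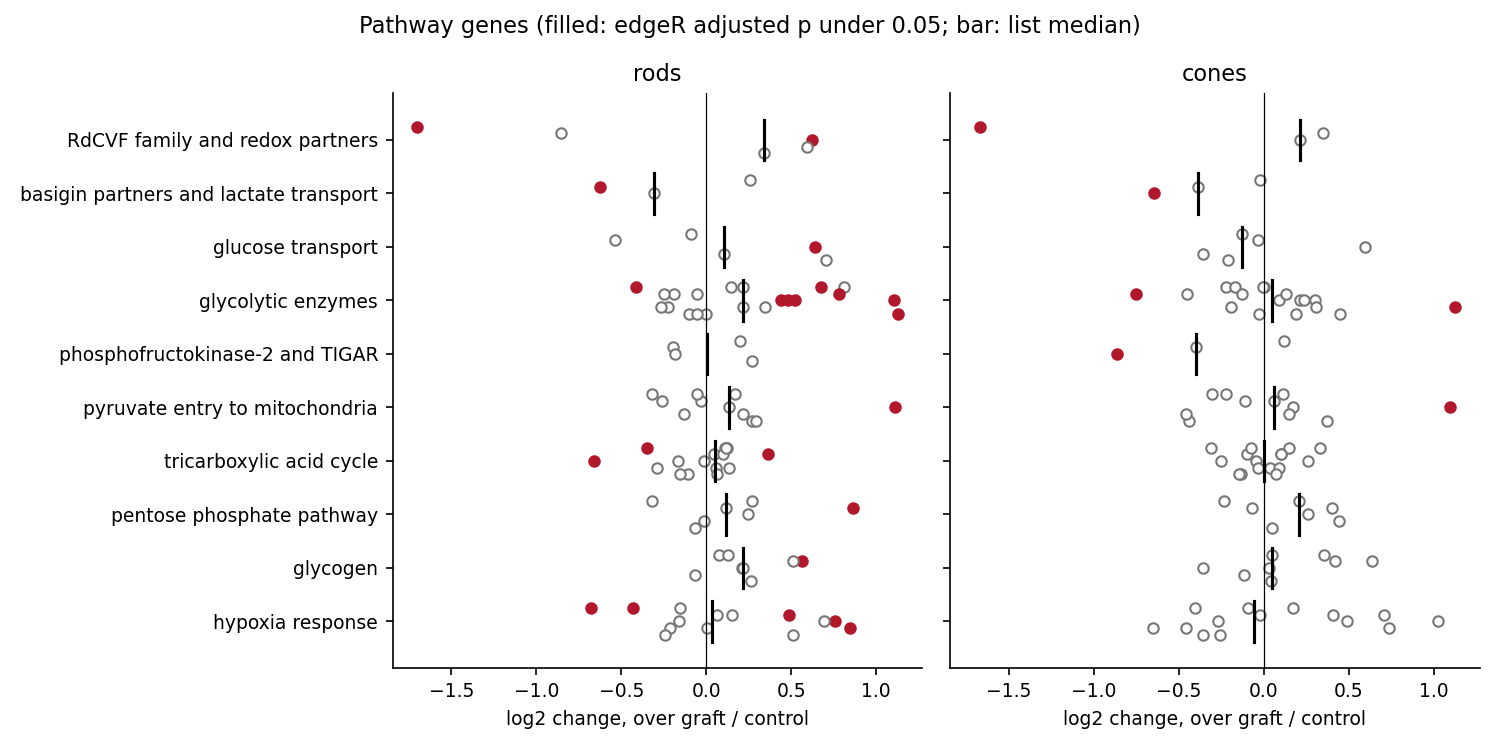
Log2 change over graft against control (horizontal axis) of each tested gene of the 10 pathway lists in rods and cones; filled red points passed edgeR adjusted p under 0.05 and black bars are list medians. In rods 7 glycolytic enzymes lie to the right as filled points and 1 to the left, while in cones HK2 and PDK1 are the filled points to the right.

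The genes whose levels were most like those of the 2 photoreceptor-rich members were found by Pearson's r of log2(CPM + 1) over 36 sums, 6 classes in 6 libraries, among 10640 genes. The points share libraries and classes, so r is a description. For NXNL1 they were PLA2R1 (r = 0.949), ZDHHC6 (0.916), the photoreceptor retinoid flippase ABCA4 (0.909), SLC25A25 (0.896) and the rod channel subunit CNGB1 (0.891). For HK2 they were the acyl-CoA synthetase ACSL1 (0.936), the interphotoreceptor matrix gene IMPG2 (0.921), the photoreceptor chaperone AIPL1 (0.915), CCDC181 (0.911) and TMEM138 (0.908).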

How the data were processed

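Gene by barcode matrices of UMI counts were deposited for 6 libraries, made by the authors with Cell Ranger 6.0.2 (both LG5 libraries), 7.0.0 (RC726 control) and 7.1.0 (the rest), per the file headers. Per the labels' protocols, punches were dissociated with trypsin and a neural tissue kit and libraries made with 10X 3' chemistry. In the sources used here the genome build is not given, nor whether intron reads were counted. Barcodes had at least 500 UMIs, 300 genes and at most 20% mitochondrial counts. The doublet caller marked at most 0.035% of barcodes, so the 6% with the highest doublet scores in each library were removed. Barcodes were clustered with scanpy 1.11.5 (2571 genes, none of them a pathway gene, 30 components, 20 neighbours, Leiden resolution 1.5, 58 clusters), and 35 clusters were named from 14 marker lists (score at least 1.0, lead at least 0.5). These limits were set after seeing the data, and 4.27% to 21.1% of barcodes stayed unnamed. Counts were summed per library and class, and tested with edgeR 4.0.16 (R 4.3.3), blocking on the experiment. The design text describes both punches of an experiment as areas of the same retina, and their deviations from the group means correlated at 0.829 to 0.952 in each class and experiment. On simulated counts the test recovered 88%, 79% and 89% of genes changed by a log2 of 1 in rods, cones and Müller glia, 45% and 36% for the differences of Müller glia and of cones from rods, and 67% for class levels. The simulation gave all genes the same set spread, not that of the data, and changed only genes above a count limit. These shares are therefore a check of the fit and not its power in these data. Free RNA in rods and cones was estimated from Müller glia markers and in Müller glia from rod markers. The labels do not say whether 1 dog gave more than 1 experiment. With the block, p-values measure how the change over graft varies among 3 experiments, not the spread of levels between them. For class levels they measure how the class differences vary among the 3 control libraries. Named beside the 10 genes were the pathway genes past the threshold (up to 6 for each list and class) and the 5 genes most like NXNL1 and HK2. The 10 genes and the lists were chosen with earlier results of these data known. All 10 matched a RefSeq symbol of the assembly UU_Cfam_GSD_1.0. PDHA1, PDK3 and the marker MOG were not analysed here, and some genes of the pathway lists are not reported here. Alternatives were no block, DESeq2 1.42.0, RLE factors, no filter on low counts, each experiment left out, barcodes gated 1 by 1, a stricter barcode filter (1000 UMIs, 10% mitochondrial), doublets kept, free RNA subtracted and, chosen after seeing the data, rod clusters that also carry Müller glia markers left out.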

Additional observations from a re-analysis of the deposited data

Results flagged for a closer look

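Each value here is the change of a class over graft minus the change of rods (log2). Each was singled out because that difference itself passed edgeR's test with adjusted p under 0.05. Beyond the main genes followed above, a pathway gene was considered only if already called over graft in rods, cones or Müller glia. In Müller glia against rods, 11 genes of the pathway lists were singled out. LDHA (-0.79), PDK1 (-0.85), BNIP3 (-0.94), SLC2A13 (-0.74), P4HA1 (-0.73), TKT (-0.63), GBE1 (-0.56) and GPI (-0.55) had a lower change in Müller glia than in rods, and all 8 rose in rods. NDRG1 (1.07), ADM (0.999) and MDH2 (0.65) had a higher change in Müller glia, and all 3 fell in rods. None of the 11 was called in Müller glia themselves, where no gene of the pathway lists was called. That they were called in rods and not in Müller glia thus follows largely from the choice of genes. Of all 18126 genes tested, chosen without that condition, 8.21% were called for this difference. All 11 lost the call after subtraction of free RNA (adjusted p from 0.0609 for ADM to 0.434 for TKT) and without the experiment block. With DESeq2 the call was also lost for GBE1, GPI, MDH2, PDK1, SLC2A13 and TKT. Leaving out LG5 ended it for GPI and TKT, leaving out RC726 for GBE1, GPI and SLC2A13, and leaving out RC724 for MDH2, NDRG1 and TKT.

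In cones against rods, 6 genes were singled out: TIGAR (-1.15), LDHA (-0.67), ALDOC (-0.57), PGAM1 (-0.48), TPI1 (-0.45) and ENO1 (-0.44), each with a lower change in cones. LDHA, PGAM1, TPI1 and ENO1 rose in rods, while TIGAR and ALDOC fell in cones. That each was called in rods or cones also follows largely from the choice of genes. Of all 14617 genes tested, chosen without that condition, 4.73% were called for this difference. Of 11 alternatives, the call was lost in 9 for ENO1, in 6 each for PGAM1 and TPI1, and in 2 each for TIGAR, ALDOC and LDHA. Removal of the experiment block ended all 6 calls, and leaving out RC726 ended those of ENO1, PGAM1, TPI1, ALDOC and LDHA. Other pathway genes not called over graft in rods, cones or Müller glia were not considered here, so genes not listed may also differ. The recovery of simulated differences of a log2 of 1 was 45% for Müller glia against rods and 36% for cones against rods. That recovery is a check of the fit and not its power in these data.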

How the results depend on the processing

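With the experiment block removed (no replicate block), no gene was called in rods, cones, Müller glia or either difference between classes (0 in each), 0 of the 10 genes among them, and the class levels gave 653 (cone minus rod, 0 of the 10), 5275 (Müller glia minus rod, 5 of the 10) and 4289 genes (cone minus Müller glia). Other counts that moved by over 1.5 times, against 3340 in rods, 401 in cones, 22 in Müller glia and 1489 and 692 for the differences of Müller glia and of cones from rods, were as follows. DESeq2 called 239 in Müller glia (1 of the 10), 527 and 153 for the differences, with 2 of the 10 for cones, and 4 of the 10 for cone minus rod levels. Without the filter, 927 were called in cones and 533 in Müller glia (2 of the 10). Barcodes gated 1 by 1 gave 250 in cones and 303 for cones against rods. Doublets kept gave 54 in Müller glia (1 of the 10). The stricter filter gave 1 of the 10 for cone minus rod levels. Free RNA subtraction gave 2179 in rods, 0 in Müller glia and 105 for Müller glia against rods (0 of the 10), and 1 of the 10 for cone minus rod levels. Leaving out 1 experiment gave 1226 to 3176 in rods, 192 to 720 in cones, 2 to 179 in Müller glia (0 to 1 of the 10), 833 to 1737 for Müller glia against rods (1 to 3 of the 10), 305 to 904 for cones against rods (0 to 1 of the 10), 264 to 6186 for cone minus rod (0 to 7 of the 10), 6027 to 12091 for Müller glia minus rod (4 to 8 of the 10) and 4076 to 10093 for cone minus Müller glia (3 to 6 of the 10). Fewer samples are part of the last set; otherwise the cause was not tested.

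Of single-gene values 809 kept direction and call, 162 lost the call, 8 gained it and 28 changed sign, all 28 from estimates that were not called. Free RNA subtraction turned SLC2A1 in rods to 0.24, LDHB in cones to -0.0025, PFKFB3 in Müller glia to -0.052, and HK2 to -4.43 for Müller glia against rods and 0.0056 for cones against rods. Barcodes gated 1 by 1 turned BSG in cones to 0.17, SLC2A1 in cones to 0.11, LDHB in cones to -0.027 and LDHB in Müller glia to -0.050. Doublets kept turned BSG in cones to 0.022, LDHB in cones to -0.022 and HK2 for cones against rods to 0.038. DESeq2 turned the latter to 0.0005 and the unfiltered fit to 0.037, and no replicate block turned NXNL1 for cones against rods to -0.081. Leaving out 1 experiment gave HK1 in rods -0.11 to 0.41, PFKFB3 in rods -0.57 to 0.0016, LDHB in cones -0.10 to 0.12, SLC2A1 in Müller glia -0.37 to 0.18, PFKFB3 in Müller glia -0.11 to 0.22, LDHB in Müller glia -0.029 to 0.075, NXNL1 for Müller glia against rods -0.38 to 0.003, HK2 for Müller glia against rods -0.014 to 1.21, NXNL1 for cones against rods -0.071 to 0.11 and HK2 for cones against rods -0.21 to 0.10. Of the 20 other pathway genes called in rods, 6 kept their call without RC724 and 15 after free RNA subtraction, and of 3 in cones 0 did without LG5 and 1 without RC724. The 3 calls in rods of the 10 genes were lost only without the block; those of NXNL1 and HK2 in cones likewise.

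The depth limits NXNL1 in cones (6 to 68 UMIs per library) and NXNL1 in Müller glia (5 to 32 UMIs). NXNL1 and HK2 gave no value in Müller glia after free RNA subtraction, and the fit without mixed rod clusters was run for rods only.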
